A study of Mus musculus with 6 samples.

Results

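The cytosolic ribosome carries a set of ribosomal proteins, and the genes that encode them are described here in RNA-sequencing libraries from injured mouse lung. The genes were found by name, as Rpl or Rps followed by a number and an optional a, x, l or p ending, with Rplp0, Rplp1, Rplp2 and Rpsa added. Names with a -ps ending (pseudogenes) and the Rps6k kinases were left out. The rule matched 84 gene names. Of these, 64 had an intact row in all 6 deposited tables, among 19033 genes with an intact row, and 63 passed the filter of a mean of at least 1 FPKM over the 6 libraries. FPKM, the deposited unit, scales the sequenced fragments of a gene by its length and by the size of its library. Wherever a gene's values are listed, they follow the order of mice 1, 2 and 3 of each group. The 64 comprised 37 genes of the large subunit, 25 of the small subunit and 2 of the stalk.

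The old group held 3 C57/BL6 mice labelled old, and the young group held 3 C57/BL6 mice labelled young. All 6 had received acid injury, and each library was labelled as endothelial cells of the lung from a separate mouse. Neither the animals' sex, their age in months, the interval since injury nor a step to isolate cells is stated in the labels, which describe homogenized tissue. The single comparison of the design asks how expression after injury differed with age, and no uninjured library was analysed here. The values implied between 11381122 and 17931463 fragments per old library and between 14903398 and 17723926 per young library.

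Ribosomal proteins are made in equal proportions to assemble with ribosomal RNA in the nucleolus. Most of their messenger RNAs begin with a 5′ terminal oligopyrimidine (TOP) tract, an uninterrupted stretch of C and T letters at the start of transcription, through which the mTOR kinase adjusts their translation to growth conditions. Their messages are short and abundant in dividing and secretory cells.

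The labelled cell type was set against marker genes, and the markers differed between groups and between libraries of a group. Of 12 endothelial markers tested, 10 were lower in old mice and 0 higher, and their summed level ran from 44.2 to 154 FPKM in old libraries and from 537 to 1490 FPKM in young libraries. Of 6 fibroblast markers, 6 passed as higher in old mice, and their sums ran from 2085 to 4842 FPKM in old libraries, against 108 to 209.9 FPKM in young ones. Of 9 neutrophil markers 0 passed in either direction, and they summed to 485 to 1053 FPKM in old mice, against 70.4 FPKM in young mouse 1 and 25159 and 25217 FPKM in young mice 2 and 3. Of 5 erythroid markers 0 passed, and they summed to 1675, 489 and 514 FPKM in the old mice, against 1674, 457 and 304 FPKM in the young mice. Of mesothelial and epithelial markers, 5 of 5 each had a higher mean in old mice on the log2 scale, and 3 of 5 each passed. Of the other lists, 0 of 8 macrophage, 0 of 7 T and natural killer cell, 0 of 4 B and plasma cell and 0 of 5 smooth muscle markers passed. The macrophage markers summed to 850, 1319 and 2231 FPKM in the old mice, against 110, 3244 and 9505 FPKM in the young mice. The T and natural killer cell, B and plasma cell and smooth muscle markers also had their lowest sums in young mouse 1, at 4.64, 13.6 and 63.3 FPKM. No list had a marker at 0 in every library of a group. Fewer cells of a type and less RNA per cell cannot be told apart in such bulk libraries, and the part of cell content in the values given here was not tested.

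Nearly every ribosomal protein gene had a higher mean in old than in young mice, by 1.57-fold at the median (on the log scale), and none passed the test against the spread between mice. Of the 63 genes tested, limma called 0 at an adjusted p of 0.05 in either direction, while it called 498 of all 10010 genes tested (4.98%), 295 higher in old mice (2.95%) and 203 lower (2.03%). The lowest adjusted p of a ribosomal protein gene was 0.131. At an unadjusted p under 0.05 there were 5 ribosomal protein genes, against 2315 of all genes tested (23.1%). The direction of the differences was shared. The log2 fold change (the old minus the young mean of log2(FPKM + 1)) was above 0 for 62 of 63 ribosomal protein genes, against 49.3% of all genes tested. Its median was 0.65 over the ribosomal protein genes and -0.01 over all genes tested.

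The size of the shared difference, though not its direction, moved with single libraries, and most with that of old mouse 1. Without that library 61 of 62 genes tested still had a log2 fold change above 0. Summed over the 64 genes, ribosomal protein transcripts reached 55787, 29304 and 22989 FPKM in the old mice, against 16536, 21020 and 26680 FPKM in the young mice. Old mouse 1 stood above every other library, young mouse 1 was the lowest, and old mouse 3 lay below young mouse 3, so that the groups overlapped. As a share of all FPKM the genes made up 16.0, 9.02 and 7.33% in the old mice, against 6.35, 6.25 and 7.18% in the young mice. Of the fragments in kept rows they made up 10.2, 5.53 and 4.70% in the old mice, against 3.31, 3.83 and 4.55% in the young mice. By either share old mouse 3 lay narrowly above young mouse 3, so that the groups did not overlap. The log2 ratio of the summed levels, old over young, was 0.67 with a pooled SD between mice of 0.53, and the ratio was 0.30 without old mouse 1.

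Old mouse 1 held the highest value of the 6 libraries for 61 of 63 ribosomal protein genes (96.8%), against 20.9% of all genes tested. The 2 exceptions were Rps4l and Rpl24, of which Rps4l was highest in young mouse 2 and Rpl24 in young mouse 3. The level in old mouse 1 was a median of 2.07 times the mean of old mice 2 and 3, and this ratio ran from 1.23 for Rpl35 to 3.67 for Rps12. At the other end, young mouse 1 held the lowest value for 53 of the 63 genes, against 23.2% of all genes tested, and young mouse 2 for 8. Without old mouse 1 the median log2 fold change of the family was 0.31. It kept its sign in all 6 fits that left out 1 library, with values of 0.31 to 0.89, and was 0.96 against young mouse 1 alone.

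**Figure D1:**
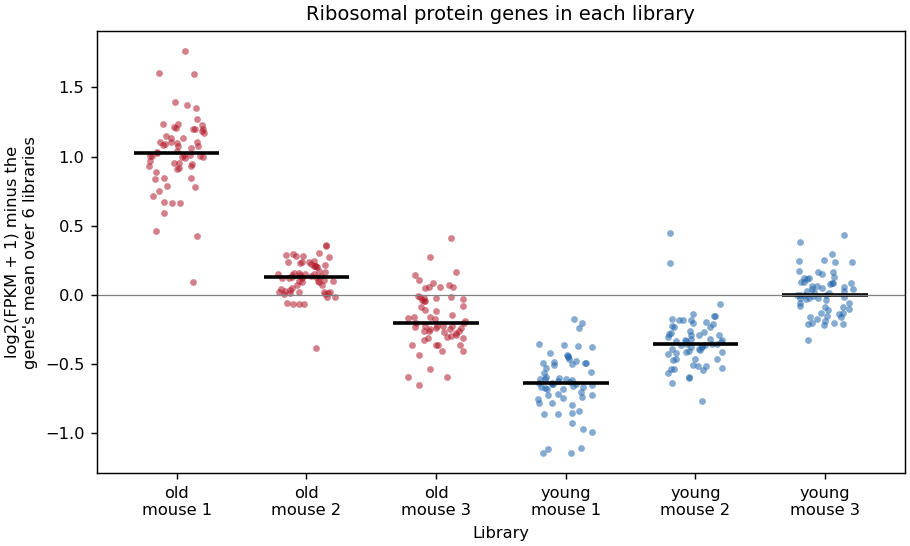
Each point is 1 of 63 ribosomal protein genes in 1 library; the vertical axis gives its log2(FPKM + 1) minus the mean of that gene over the 6 libraries, and bars mark medians. Old mouse 1 (median 1.03) lies above the other libraries, old mice 2 and 3 are at 0.13 and -0.20, and young mice 1, 2 and 3 are at -0.64, -0.35 and 0.00.

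The levels of the genes within the family were correlated between libraries. Pearson's correlation of log2(FPKM + 1) between 2 libraries, across the ribosomal protein genes, ran from 0.975 to 0.993, as a description over genes that share library and length. Mean levels of the genes tested ran from 1.00 to 2197 FPKM, and so wide a range raises such a correlation. When each gene was expressed relative to the family's median level in the same library, 50 of 63 genes had old and young means within 0.25 of each other on the log2 scale. Rpl10a lay furthest in the positive direction at 0.40, with relative levels of -0.84, -0.84 and -0.79 in the old mice, against -1.17, -1.22 and -1.27 in the young mice. These relative levels did not overlap between the groups, and old mouse 1 lay with the other old mice. Rpl10a was the 1 gene of 63 whose relative level was apart and higher in old mice, against 2.27% of all genes tested when set against the same family median. Apart and lower were 9 of 63, namely Rpl7a, Rpl9, Rpl18, Rpl23a, Rpl24, Rpl27a, Rps9, Rps14 and Rps25, against 30.7% of all genes tested. The family is centred on its own median, which was higher on average in old mice, while other genes are not. The shares of the family and of all genes are thus not comparable, and no conclusion is drawn from their contrast.

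The old and young values did not overlap for 16 of 63 ribosomal protein genes, all with higher old values, against 14.5% of all genes tested with higher and 16.7% with lower old values. They were Rpl4, Rpl5, Rpl6, Rpl7, Rpl8, Rpl10a, Rpl12, Rpl14, Rpl15, Rpl19, Rpl31, Rpl35, Rpl41, Rps4x, Rps19 and Rps27l. By subunit these were 13 of 36 genes of the large subunit, 3 of 25 of the small subunit and 0 of 2 of the stalk. The number depended on 2 libraries near the boundary between the groups. It was 41 without old mouse 3 and 46 without young mouse 3 (19.7 and 19.8% of all genes tested), and 16 or 17 without any other library.

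Of the 36 genes of the large subunit tested, which forms peptide bonds and the exit tunnel, 35 had a log2 fold change above 0 and the median was 0.66, or 0.36 without old mouse 1. Rpl10a (ENSMUSG00000037805, chromosome 17, 28328471 to 28331033, plus strand in GRCm38) encodes the protein of the L1 stalk, where used transfer RNA leaves the ribosome. It was at 341, 185 and 156 FPKM in the old mice, against 73.2, 101 and 125 FPKM in the young mice. Every old library lay above every young one, including old mouse 3 and young mouse 3, which were nearest to each other. Its log2 fold change of 1.13 ± 0.37 (SE) was the highest of the family, with a limma 95% interval of 0.25 to 2.01 and an adjusted p of 0.133.

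Rpl35 (ENSMUSG00000062997, chromosome 2, 39001580 to 39005624, minus strand), whose protein sits at the mouth of the exit tunnel, had the lowest adjusted p. Its level was 146, 108 and 128 FPKM in the old mice, against 60.3, 75.02 and 87.6 FPKM in the young mice. The groups did not overlap, and the ratio of old mouse 1 to the mean of old mice 2 and 3, 1.23, was the lowest of the ribosomal protein genes tested. The log2 fold change was 0.77 ± 0.25 (SE, adjusted p = 0.131) and 0.67 without old mouse 1. In GENCODE M21, 66.2% of its exon bases are shared with exons of Wdr38 or Arpc5l, and no source used here says whether counting used strand, so reads of these genes cannot be told apart.

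Rpl5 and Rpl11 encode the proteins that join 5S ribosomal RNA and, when free, bind the p53 regulator Mdm2. Rpl5 was at 278, 163 and 146 FPKM in the old mice, against 99.4, 89.1 and 122 FPKM in the young mice, and 26.7% of its exon bases are shared with Fam69a or Snord21. Rpl11 was at 213, 128 and 110.5 FPKM in the old mice, against 71.8, 84.9 and 121 FPKM in the young mice. The groups were apart for Rpl5 and overlapped for Rpl11, with log2 fold changes of 0.87 ± 0.32 and 0.67 ± 0.34 (SE, adjusted p = 0.165 and 0.290).

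Rpl4, which lines the exit tunnel, was at 902, 651 and 632 FPKM in the old mice, against 441, 407 and 488 FPKM in the young mice. The gap between the groups exceeded the gap between old mice 2 and 3. Its log2 fold change of 0.69 ± 0.26 (SE) had an adjusted p of 0.169. Rpl4, Rpl5, Rpl10a, Rpl35 and Rpl41 were the 5 genes whose 95% interval lay above 0 before adjustment. Rpl41, which encodes a very short, basic peptide, was at 1708, 984 and 925 FPKM in the old mice, against 386, 758 and 748 FPKM in the young mice, with a log2 fold change of 0.94 ± 0.39 (SE, adjusted p = 0.211). The groups were again apart, and young mouse 1 lay below the other young mice.

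The most abundant transcript of the family per unit length was that of Rpl37a, at 3833, 2469 and 1614 FPKM in the old mice, against 1063, 1722 and 2483 FPKM in the young mice. Its groups overlapped, because young mouse 3 lay above old mice 2 and 3, and its log2 fold change was 0.58 ± 0.45 (SE, adjusted p = 0.465). Rpl14 was at 1471, 784 and 642 FPKM in the old mice, against 407, 448 and 628 FPKM in the young mice, with old mouse 3 just above young mouse 3. Rpl10, whose protein joins last, near the site of peptide transfer, had a log2 fold change of 0.70 ± 0.38 (SE, adjusted p = 0.313).

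At the low end of the large subunit, Rpl29 was at 506, 369 and 363 FPKM in the old mice, against 311, 311 and 369.8 FPKM in the young mice. Its log2 fold change was 0.31 ± 0.25 (SE, adjusted p = 0.494), and its level in old mouse 1 was 1.38 times the mean of old mice 2 and 3. Rpl23a was at 69.2, 40.2 and 31.8 FPKM in the old mice, against 25.8, 35.6 and 47.1 FPKM in the young mice, and 62.3% of its exon bases are shared with Tlcd1 or Snord42b. Rpl24 had the only negative log2 fold change, -0.27 ± 0.28 (SE, adjusted p = 0.592). It was at 1.102, 0.512 and 0.812 FPKM in the old mice, against 0.712, 1.31 and 1.56 FPKM in the young mice, with 6 to 24 fragments per library. Its mean sat at the filter, it shares 47.0% of its exon bases with Gm28037, and without old mouse 1 it no longer passed the filter.

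**Figure D2:**
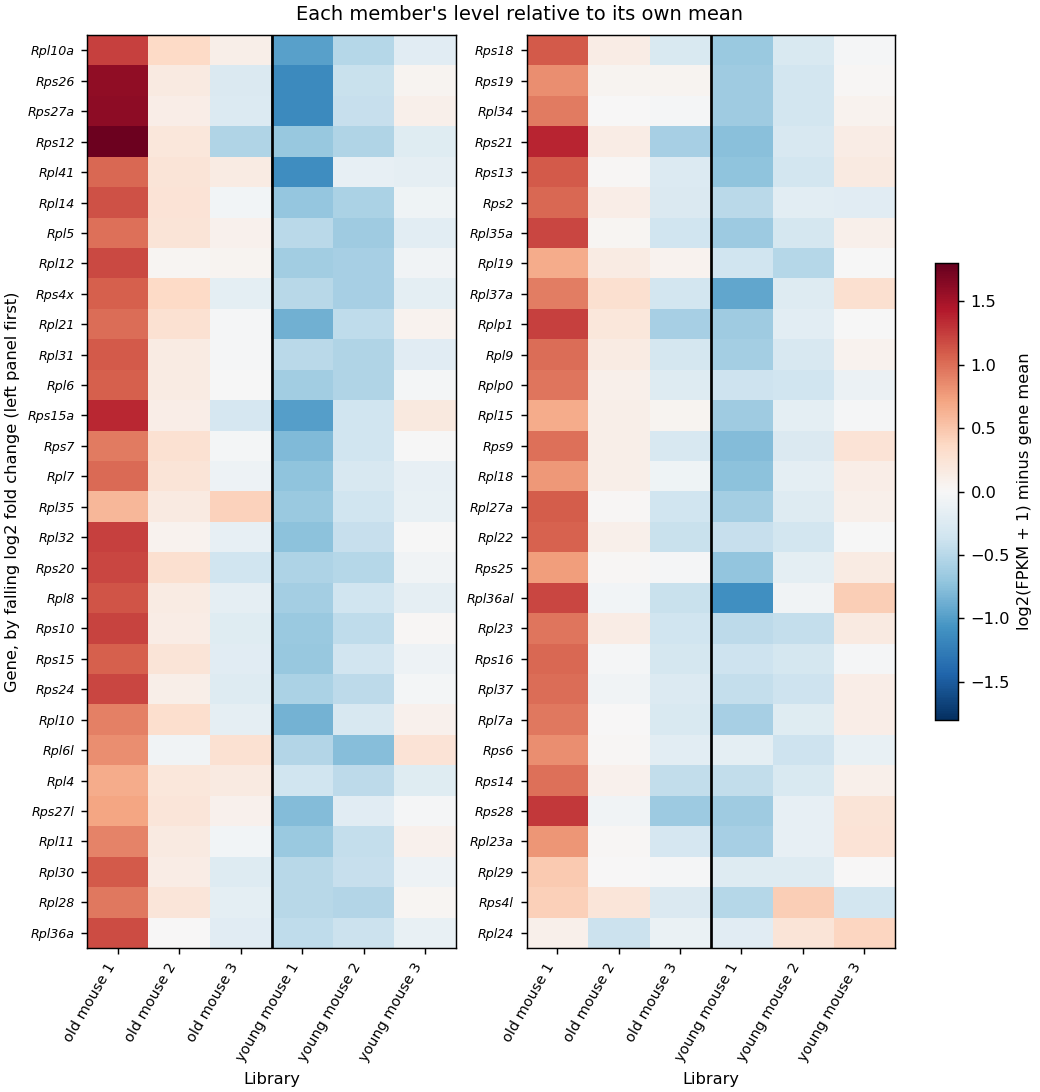
Rows are 60 of the 63 ribosomal protein genes tested, ordered by falling log2 fold change, and columns are libraries, old left of young; colour gives log2(FPKM + 1) minus the gene's own mean. The first column, old mouse 1, is red for nearly every gene and young mouse 1 is blue, with Rps4l and Rpl24 as the 2 genes that were highest in another library.

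Of the 25 genes of the small subunit tested, which decodes the messenger RNA, 25 had a log2 fold change above 0 and the median was 0.64, or 0.29 without old mouse 1. Rps12, Rps26 and Rps27a had the highest values in old mouse 1 relative to the other old mice. Rps12 (ENSMUSG00000061983, chromosome 10, 23785183 to 23787275, minus strand), whose fly counterpart is needed for cells to sense ribosomal protein imbalance, was at 3079, 1051 and 626 FPKM in the old mice, against 567, 625 and 780.4 FPKM in the young mice. Old mouse 3 lay among the young libraries, and the SD of the old group, 1311 FPKM, exceeded that of the young group, 111 FPKM. The log2 fold change was 0.96 ± 0.57 (SE, adjusted p = 0.351), and 0.32 without old mouse 1.

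Rps26 (ENSMUSG00000025362, chromosome 10, 128624534 to 128626747, minus strand), whose protein lines the channel where messenger RNA leaves, was at 2402, 885 and 663 FPKM in the old mice, against 359.6, 604 and 824 FPKM in the young mice. Rps27a, which encodes a fusion of ubiquitin and a ribosomal protein, was at 964, 343 and 266 FPKM in the old mice, against 142, 237 and 336 FPKM in the young mice. For both genes old mouse 3 lay below young mouse 3. The log2 fold changes were 0.99 ± 0.55 and 0.98 ± 0.55 (SE, adjusted p = 0.322 and 0.328), and 0.44 and 0.43 without old mouse 1.

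Rps6, the ribosomal substrate of the S6 kinases downstream of mTOR, was at 782, 441 and 382 FPKM in the old mice, against 385, 337 and 398 FPKM in the young mice. Apart from old mouse 1, the 5 libraries lay close together, and the log2 fold change was 0.45 ± 0.33 (SE, adjusted p = 0.439). Rps14, lost in a human anaemia with a deletion on a chromosome arm, was at 1460.5, 771 and 541 FPKM in the old mice, against 538, 606 and 777 FPKM in the young mice. Its fold change on the log2 scale was 0.42 ± 0.40 (SE, adjusted p = 0.562) and 0.03 without old mouse 1. Rps19, often mutated in human Diamond-Blackfan anaemia, was at 468, 270.5 and 271 FPKM in the old mice, against 166, 207 and 266 FPKM in the young mice, so that its groups were narrowly apart.

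Rps25, needed for initiation at some internal ribosome entry sites, was at 1779.5, 1079 and 1039 FPKM in the old mice, against 645, 934 and 1175 FPKM in the young mice. It shares 24.8% of its exon bases with Trappc4 or Ccdc84. Its groups overlapped, since young mouse 3 lay above old mice 2 and 3, and its log2 fold change was 0.50 ± 0.35 (SE, adjusted p = 0.422). Rps28 was the gene whose sign turned with old mouse 1. It was at 609.7, 240.0 and 159.8 FPKM in the old mice, against 162, 227 and 296 FPKM in the young mice, with a log2 fold change of 0.37 ± 0.52 (SE, adjusted p = 0.702) and of -0.18 without old mouse 1.

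**Figure D3:**
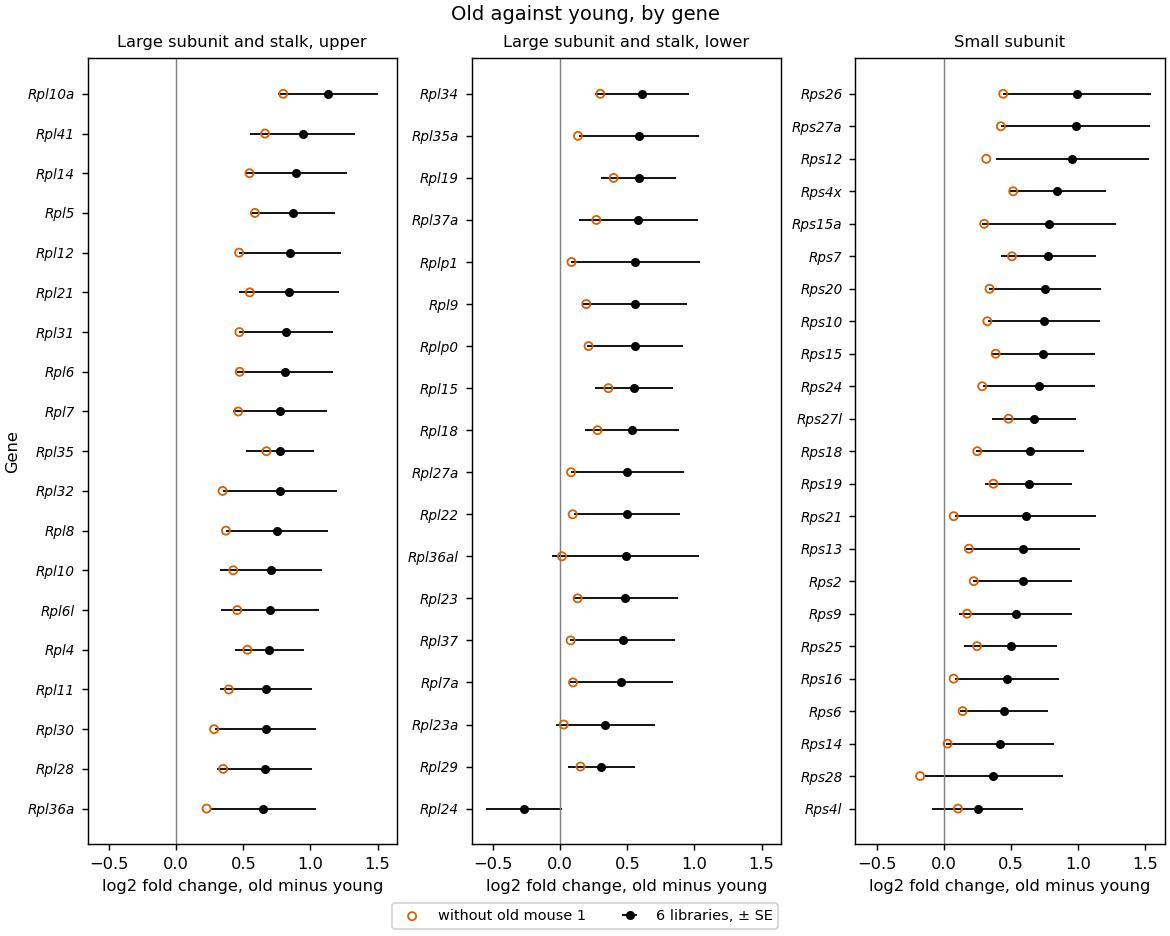
Filled points give the log2 fold change (mean log2(FPKM + 1) in old minus young mice) of 60 of the 63 ribosomal protein genes with its SE, in 2 panels for the large subunit with the stalk and 1 for the small subunit; open points give the value without old mouse 1, which Rpl24 lacks. Open points lie nearer to 0 than filled ones, with medians of 0.31 over the 62 genes tested without old mouse 1 and 0.65 over the 63 genes tested with it.

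The stalk, which recruits the translation factors that hydrolyse GTP, is represented by Rplp0, its base, and Rplp1. Rplp0 was at 1527, 831 and 666 FPKM in the old mice, against 604, 605 and 726 FPKM in the young mice. Rplp1 was at 3698, 1813 and 1039 FPKM in the old mice, against 1007, 1374 and 1568 FPKM in the young mice. Old mouse 3 lay below young mouse 3 for both genes, and both log2 fold changes were 0.56 (SE 0.36 and 0.48, adjusted p = 0.382 and 0.517). Rplp2, the partner of Rplp1, was not analysed here.

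Paralogues whose names end in l, made in addition to the usual gene, included Rps27l, which p53 induces. Rps27l was at 903, 638 and 584 FPKM in the old mice, against 320.0, 478 and 543 FPKM in the young mice, with a log2 fold change of 0.67 ± 0.31 (SE, adjusted p = 0.255) and groups narrowly apart. Rpl6l and Rps4l carry a pseudogene biotype in GENCODE M21, and their values are uncertain because near-identical copies can share reads. Rpl6l was at 8.43, 4.06 and 5.40 FPKM in the old mice, against 2.67, 2.10 and 5.29 FPKM in the young mice. Rpl39l, the testis-enriched relative of Rpl39, was below the filter, at 0, 1.16 and 0 FPKM in the old mice, against 0.0679, 1.47 and 2.10 FPKM in the young mice.

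The ratio of a paralogue to its parent gene could be computed for 4 of 8 pairs. Rpl7l1 and Rpl22l1 lie outside the family by the naming rule, so a shift shared by the family moves these 2 ratios through the parent gene. Both genes of a pair are compared within each library, and 3 mice against 3 cannot give an exact two-sided permutation p below 0.1. Rpl7l1, a nucleolar protein gene related to Rpl7, stood at 0.114, 0.153 and 0.185 of Rpl7 in the old mice, against 0.379, 0.256 and 0.215 of Rpl7 in the young mice. All old ratios lay below all young ratios, with the lowest in old mouse 1 and the highest in young mouse 1, and with a difference of -0.90 on the log2 scale (exact permutation p = 0.1, 0.4 after Benjamini-Hochberg adjustment over 4 pairs). Rpl7l1 itself was at 55.5, 43.5 and 41.9 FPKM in the old mice, against 55.1, 50.5 and 46.6 FPKM in the young mice, so that the ratio followed the level of Rpl7, which was at 487, 284 and 226 FPKM in the old mice, against 145, 197 and 217 FPKM in the young mice.

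The other 3 ratios overlapped between the groups. Rps4x was at 806, 489.7 and 338 FPKM in the old mice, against 271, 250.5 and 338 FPKM in the young mice, and its groups were apart by less than 1 FPKM. Rps4l over the X-linked Rps4x was 0.140, 0.200 and 0.206 in the old mice, against 0.217, 0.458 and 0.197 in the young mice (log2 difference -0.59, exact permutation p = 0.3, adjusted 0.6). Rpl36al over Rpl36a was 1.49, 1.40 and 1.27 in the old mice, against 0.927, 1.84 and 2.16 in the young mice (log2 difference -0.16, exact permutation p = 0.8, adjusted 0.8). The young libraries spread more widely than the old for this pair, and Rpl36al shares 24.5% of its exon bases with Gm49383. Rpl22l1 over Rpl22 was 0.180, 0.336 and 0.425 in the old mice, against 0.200, 0.329 and 0.296 in the young mice (log2 difference 0.13, exact permutation p = 0.7, adjusted 0.8).

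**Figure D4:**
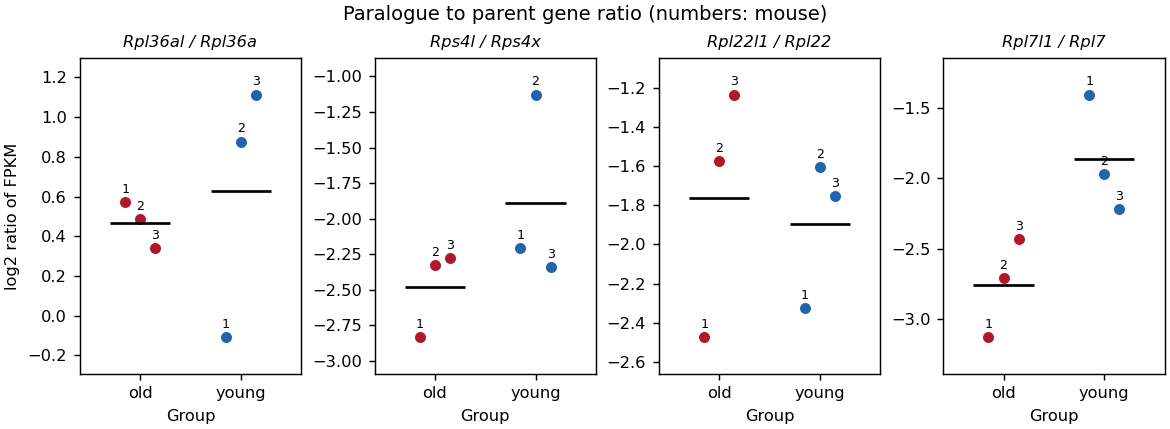
Points give the log2 ratio of FPKM of a paralogue to its parent gene in each mouse (numbers), with old left of young and bars at the group means; each panel has its own vertical scale. The groups are apart for Rpl7l1 over Rpl7, with all 3 old ratios below the 3 young ratios, and overlap for the other 3 pairs.

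The letters at the transcription starts of these genes are shown as a description, and their relation to the levels was not tested. The windows come from RefSeq annotation on GRCm38.p6, which had one for 48 of the 64 genes (59 windows, since some genes have several). Those with no window include Rpl7, Rpl8, Rpl23a, Rpl29, Rplp1, Rps4l, Rps14 and Rps27a. Each line gives 20 bases before and 20 bases from the annotated start, 5′ to 3′ on the gene's strand, with every run of at least 5 letters C and T in capitals. The first 4 were chosen because such a run covers the annotated start, as in a TOP message, and the other 4 from genes described above where it does not. In each of these other 4, a run lies within the 20 bases from the annotated start without covering it. Whether transcription begins at the annotated start was not tested, so these windows do not say that a gene lacks a TOP tract. Rps27l has 2 windows, of which the first is shown.
Rpl35 (chr2:39005112-39005151, minus): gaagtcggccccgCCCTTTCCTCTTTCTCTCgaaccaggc
Rps6 (chr4:86857348-86857387, minus): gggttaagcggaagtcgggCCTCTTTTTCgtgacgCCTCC
Rpl15 (chr14:18270967-18271006, minus): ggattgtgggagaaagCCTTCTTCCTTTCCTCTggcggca
Rpl14 (chr9:120571497-120571536, plus): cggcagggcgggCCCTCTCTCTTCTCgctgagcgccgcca
Rps12 (chr10:23787190-23787229, minus): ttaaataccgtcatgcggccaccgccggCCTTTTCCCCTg
Rps26 (chr10:128626487-128626526, minus): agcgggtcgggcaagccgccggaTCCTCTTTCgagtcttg
Rplp0 (chr5:115559447-115559486, plus): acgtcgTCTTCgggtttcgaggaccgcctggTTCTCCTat
Rps27l (chr9:66946066-66946105, plus): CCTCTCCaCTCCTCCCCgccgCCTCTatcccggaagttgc

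The run that covers the start, counted on both sides of it, is 18 letters long in Rpl35, 17 in Rpl15, 14 in Rpl14 and 10 in Rps6. It includes letters before the annotated start, so these are not lengths of a TOP tract. Over all windows, a run of at least 5 letters C and T covered the annotated start in 16 of 59 windows of ribosomal protein genes (27.1%) and in 10.1% of the 32851 windows of all genes. In the full windows of 300 bases, searched on both strands, the letters CCGGAAG, the core bound by ETS factors such as GABP, occurred in 35.6% of the windows of ribosomal protein genes and in 8.86% of all windows. The YY1 letters GCCATNTT occurred in 22.03% against 6.05%, and the TATA box letters TATAAA in 8.47% against 13.6%. These letter matches describe the windows and are not binding sites.

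Other genes of the translation machinery were read for comparison, and in each of their lists limma called 0 genes in either direction. Among other TOP genes, 12 of 13 tested had a log2 fold change above 0, with a median of 0.58, or 0.25 without old mouse 1. Their median deviation from each gene's mean followed the ribosomal protein genes, at 0.79, 0.11 and -0.15 in the old mice, against -0.61, -0.32 and -0.13 in the young mice. Rack1, a signalling scaffold on the small subunit, was at 273, 124 and 103 FPKM in the old mice, against 74.5, 80.5 and 108 FPKM in the young mice (adjusted p = 0.284). Eef1a1, which delivers transfer RNA to the ribosome, was at 1087, 760.2 and 583 FPKM in the old mice, against 595, 525 and 614 FPKM in the young mice (adjusted p = 0.406). Tpt1 did not share the direction, at 574, 513 and 366 FPKM in the old mice, against 493, 372 and 689 FPKM in the young mice. The lowest adjusted p of that list, 0.0988, belonged to Gas5, a non-coding host gene of small nucleolar RNAs that was picked out after its values were seen, with 168, 98.1 and 93.1 FPKM in the old mice, against 51.7, 49.4 and 65.3 FPKM in the young mice.

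Ribosome biogenesis genes also stood highest in old mouse 1, for 27 of 31 tested, with a median log2 fold change of 0.41, or 0.06 without old mouse 1. Npm1, the abundant nucleolar chaperone, was at 411, 145 and 170.3 FPKM in the old mice, against 93.1, 99.3 and 128 FPKM in the young mice (log2 fold change 1.02 ± 0.42, SE, adjusted p = 0.209). Its groups were apart. Elongation and termination factors, several of them TOP genes as well, had a median of 0.32 over 8 genes, or 0.11 without old mouse 1, with 6 above 0.

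Initiation factors lay closer to all genes, with 18 of 27 above 0 and a median log2 fold change of 0.10, or -0.03 without old mouse 1. Old mouse 1 was the highest library for 15 of the 27. Eif1, which guards start codon choice, was at 683, 648 and 586 FPKM in the old mice, against 657, 707 and 698 FPKM in the young mice, and so did not have its highest level in old mouse 1. Eif5a, which helps the ribosome through stretches of proline, was at 719, 339 and 398 FPKM in the old mice, against 347, 359 and 319 FPKM in the young mice (adjusted p = 0.469), with old mouse 1 again apart. Among 19 genes that control ribosomal protein synthesis (mTOR, MYC and stress pathways), 6 were above 0 and the median was -0.11, with 4 highest in old mouse 1. Eif4ebp1, the mTOR substrate that holds back cap-dependent initiation, was at 111, 137 and 109.9 FPKM in the old mice, against 118, 169.6 and 196 FPKM in the young mice (adjusted p = 0.405). Atf4, the transcription factor of the integrated stress response, had a log2 fold change of 0.34 ± 0.25 (SE, adjusted p = 0.448).

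**Figure D5:**
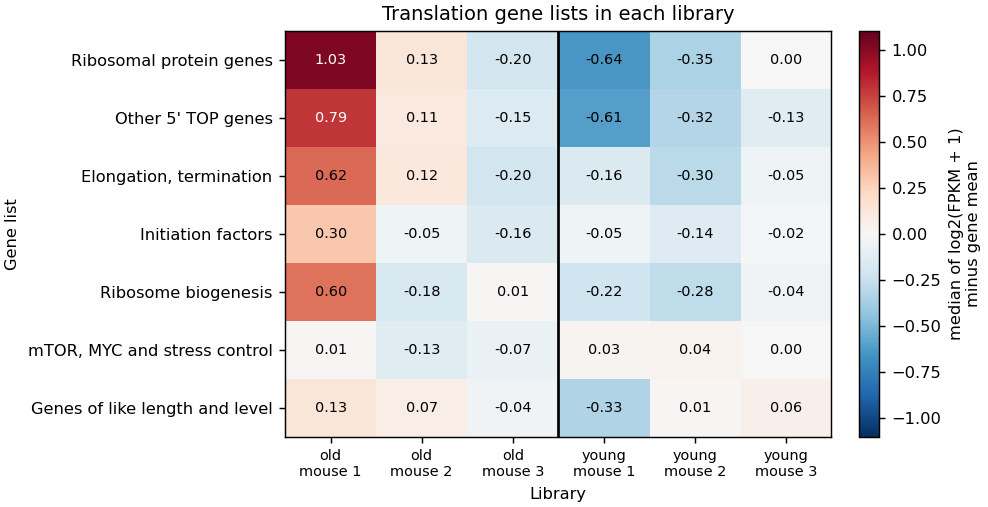
Cells give the median over a list's tested genes of log2(FPKM + 1) minus the gene's mean over 6 libraries, old libraries left of young. Old mouse 1 reads 1.03 for ribosomal protein genes, 0.79 for other TOP genes and 0.60 for ribosome biogenesis, against 0.01 for the control genes and 0.13 for genes of like length and level.

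Genes of like length and level were set beside the family, whose transcripts are mostly short and abundant. The 440 other genes tested with a mean of 99.5 to 949 FPKM (the 10th to the 90th percentile of the family) and a length of 447 to 6270 bases had a median log2 fold change of 0.16, with 62.7% above 0. Old mouse 1 was the highest library for 33.2% of them, against 61 of 63 ribosomal protein genes. In that band 11 genes were called higher and 4 lower (3.41% in all). Length moved with the library: in the shortest class, up to 800 bases, the other genes of that level deviated by 0.38 in old mouse 1 and by -0.61 in young mouse 1, and between 2500 and 4000 bases by 0.03 and -0.11. The ribosomal protein genes deviated by 1.01 and -0.68 in the shortest class (9 genes) and by 1.04 and -0.64 between 2500 and 4000 bases (14 genes). Length here is the exon length that FPKM divides by, which can exceed the length of the message. These classes therefore do not sort the family by message length, whose part was not tested. Up to 800 bases the low value of young mouse 1 was close to that of other genes. Between 800 and 1500 bases the family was at -0.61 in young mouse 1, against -0.35 for other genes of that level. Between 1500 and 2500 bases these values were -0.54 and -0.29. The part of length in the values of the family was not tested.

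Rows named as ribosomal protein pseudogenes (-ps), which can take up reads from their parent genes, were also highest in old mouse 1 and lowest in young mouse 1 when summed, at low levels. They summed to 2115, 882 and 881 FPKM in the old mice, against 524, 631 and 767 FPKM in the young mice, or 2.88 to 3.83% of the summed level of the family, and these sums did not overlap between the groups. Of 74 such rows tested, 69 had a log2 fold change above 0, the median was 0.69 and 0 were called. The most abundant was Rpl38-ps2, at 351, 133 and 79.6 FPKM in the old mice, against 49.8, 68.7 and 83.5 FPKM in the young mice, while Rpl38 itself was not analysed here. No source used here says how the authors assigned reads that match several copies, so single values of this family are uncertain to the extent that copies share reads.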

How the data were processed

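The authors deposited 1 table per library with Ensembl gene identifiers and FPKM values, per the file headers, without counts. The tools CASAVA 1.7 and Bowtie 0.12.2 and the genome build mm8 are listed, with no role, per the submitters' processing notes; no source used here names the counter or annotation. The labels' protocols name a TruSeq RNA kit. The tables were damaged as received: of 24720 rows, the first 2884 were intact, and later rows held altered identifiers or values. Each intact FPKM value is a whole number of fragments over gene length and library total. Rows were kept where 1 whole-base length gave whole fragments in all 6 libraries (tolerance 1e-06 fragments plus a relative 3e-13), the identifier was known and values were under 1000000. This kept 19037 rows, left out 5683 (22.99%), and gave each library's total, which is the depth stated. No value was repaired. Each table had 18 other unnamed columns, with cells in 432 rows, which were not used. The lengths equalled GENCODE M21 exon lengths for 78.85% of rows kept (42 of the 64 ribosomal protein genes), so coordinates are those of M21 on GRCm38.

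Of the 84 names, 20 gave no usable row and were not analysed: Rpl3, Rpl17 and Rps27 had damaged rows, and 17 names, among them Rpl13, Rpl13a, Rpl26, Rpl27, Rpl36, Rpl38, Rpl39, Rplp2, Rps3, Rps23, Rps29 and Rpsa, were matched to no row. Some genes enter the counts and medians but are not reported here by name. Rows sharing a symbol were summed. The 10010 genes with a mean of at least 1 FPKM were tested on log2(FPKM + 1), without rescaling, with limma 3.58.1 in R 4.3.3 (eBayes with trend, old against young, no covariates, two-sided), with Benjamini-Hochberg adjustment over all of them and a threshold of 0.05. The log2(FPKM + 1) scale understates changes of genes with low FPKM. The labels name separate mice, so p-values measure the spread between mice. Tested on simulated data with the comparison old against young and 10010 genes, the fit recovered 114 of 200 changes of 4-fold.

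The members and the gene lists were chosen with earlier results of these data known. Genes named were those past the threshold (0), the 6 highest and 6 lowest log2 fold changes, the 6 highest mean levels, the stalk genes, Rps6, paralogues with an l ending and their parents, and from each other list the 2 highest mean levels; other names were added for their role or after their values were seen. The alternatives tried were another pseudocount (0.1), a filter at 5 FPKM or none, 3 scalings between libraries, a block on mouse number, array weights, no whole-fragment check, and leaving out libraries. The titles number the mice and state no pairing, so the samples were treated as unpaired. Deviations of same-numbered mice correlated at -0.09, -0.003 and 0.01, which cannot exclude a shared batch. Figures were drawn with matplotlib 3.10.9.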

Additional observations from a re-analysis of the deposited data

How the results depend on the processing

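Across the 16 alternatives run, limma called 0 ribosomal protein genes in each, the lowest adjusted p of a ribosomal protein gene ranged from 0.110 to 0.262, between 0 and 19 had an unadjusted p under 0.05, and at least 61 had a log2 fold change above 0. All genes called numbered 498 as reported, 292 where a mean of at least 5 FPKM was required, 223 with no filter and 126 with a replicate block on the mouse number, under which the family's median stayed at 0.65. Leaving out 1 library at a time gave 84 to 395 genes called among all, a family median of 0.31 to 0.89 and a log2 ratio of summed levels of 0.30 to 0.94 (lowest without old mouse 1). The family median was 0.47 with array weights and 0.63 to 0.68 under the 3 scalings. Leaving out 1 library also moved the paralogue ratios (log2, old minus young): -1.08 to -0.67 for Rpl7l1 over Rpl7, -0.81 to -0.21 for Rps4l over Rps4x, -0.53 to 0.082 for Rpl36al over Rpl36a (0.082 without young mouse 3) and -0.13 to 0.49 for Rpl22l1 over Rpl22 (-0.13 without old mouse 3, -0.082 without young mouse 1). The band of genes of like length had 382 of 7504 genes called (5.09%) when widened to all levels of the family, against 15 of 440 (3.41%). Direction and side of the threshold were compared only for the 28 ribosomal protein genes named by rank, as stalk genes, as paralogues with their parents, or as Rps6. Genes named for other reasons, such as Rpl4, Rpl5, Rpl11, Rpl35 and Rps19, were not part of this comparison. Of the genes compared, Rps28 turned to -0.18 without old mouse 1 (0.79 without old mouse 3) and Rps4l to -0.042 with array weights. The cause was not tested, and the other 424 comparisons kept direction and side of the threshold. With 3 mice a group and 22.99% of rows left out, small differences were not detectable.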
